A study of Mus musculus with 4 samples.

Results

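Chemokines and their receptors were followed in interscapular brown adipose tissue (BAT) of mice labelled as lacking Sox4. Genes were taken by symbol, as every row named Ccl, Cxcl, Ccr or Cxcr with a number, together with Cx3cl1, Cx3cr1, Xcl1, Xcr1, Pf4, Ppbp, the atypical receptors Ackr1 to Ackr4 and Ccrl2. This gave 66 of 55387 rows, made up of 41 ligands, 18 receptors, 5 atypical receptors and 2 pseudogenes of Ccl19. RNA sequencing was performed on 4 male C57BL/6 mice aged 15 weeks, each giving 1 library. Control mice (n = 2) were Sox4f/f, which the labels call WT although they carry the floxed Sox4 alleles. The other mice (n = 2) were Sox4-MKO littermates, which carry the same floxed alleles and a Cre recombinase driven by Myf5. Myf5-Cre acts in the lineage that forms brown adipocytes and skeletal muscle, BAT progenitors included, so leukocytes and endothelial cells are not its target. The labels give the cell type as brown adipocytes, but whole tissue was taken. The question for these genes was whether the signals and receptors that guide leukocytes differed between the genotypes.

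Chemokines are small secreted proteins that bind to proteoglycans and set up gradients along which cells move. Leukocytes read them through receptors with a membrane-spanning bundle of helices that signal through inhibitory G proteins, whereas atypical receptors take up or display chemokines without that signalling. In adipose tissue they are made by macrophages, fibroblasts, endothelial cells and adipocytes, and are known for drawing in monocytes. The CC and CXC families are named for the spacing of conserved cysteines and most ligand genes lie in clusters that arose by duplication.

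Levels are FPKM as the authors deposited them, sequenced fragments corrected for transcript length and library size. The steps between low values gave an estimated 12200000 to 16600000 fragments per library, and 18593 to 19389 rows were above 0. Sox4 was 1.98 and 1.06 FPKM in Sox4f/f mice 1 and 2 and 0.981 and 3.06 FPKM in the mice labelled Sox4-MKO 1 and 2, so the overlapping values did not bear out the label and the libraries are called by their label. Ucp1, the thermogenic uncoupling protein of brown adipocytes, was 1935 and 1814 FPKM in Sox4f/f and 733 and 1105 FPKM in the mice labelled Sox4-MKO. The summed FPKM of 5 skeletal muscle markers (Acta1, Ckm, Myh4, Mylpf and Tnnt3) was 156 and 585 in Sox4f/f, 11388 in mouse 1 labelled Sox4-MKO and 1985 in mouse 2. Mouse 1 labelled Sox4-MKO therefore stood apart in muscle RNA. Mouse 2 of that label stood apart in Ighm, an immunoglobulin heavy chain, with 123 FPKM against 7.16 to 20.2 FPKM in the other 3 libraries.

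Of the 66 genes, 29 averaged over 1 FPKM in one genotype or both and were tested (21 ligands, 5 receptors and 3 atypical receptors), as the study called its genes at that limit with p under 0.05. Of the other 37 genes, 13 were listed at 0 in all 4 libraries and 24 reached at most 1.08 FPKM. Among the 29 tested genes, 27 passed the limit in both genotypes. Ccr1 and Ppbp passed it only in the mice labelled Sox4-MKO, so they had to be higher there. The test was limma on log2(FPKM + 1), a scale on which the change of low genes is understated. At an unadjusted p under 0.05, 7.95% of the 12877 genes tested in all were higher and 8.28% were lower in the mice labelled Sox4-MKO. Among the chemokine and receptor genes, 8 of 29 (27.6%) were called higher and 1 (3.45%) was called lower. Leaving aside Ccr1 and Ppbp, 7 of the 27 that passed in both genotypes were called higher (25.9%). Those called higher were the ligands Ccl6, Ccl8, Ccl9, Cxcl13 and Pf4 and the receptors Ccr1, Ccr2 and Cxcr4, and the one called lower was Cx3cl1. Over all genes the calls were 1024 higher and 1066 lower, and became 1322 and 745 when each library was set to the same sum after leaving out mitochondrially encoded genes and Ucp1. They were 436 and 4433, or 471 and 5211, when libraries were set to equal sums of leukocyte or macrophage markers. The calls for the chemokine and receptor genes were 8 and 1, 5 and 2, and 4 and 3 on these 3 scales. No gene of the 12877 (0.0%) passed after Benjamini-Hochberg adjustment, and the smallest adjusted p was 0.191. An exact permutation test of 1 gene with 2 mice against 2 cannot give a p below 0.333.

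Both mice labelled Sox4-MKO lay above both Sox4f/f libraries for 10 of 29 genes (34.5%), beside 21.7% of all tested genes. The 10 include Ccr1 and Ppbp, whose direction the limit fixed. The reverse order held for 1 gene (3.45%), beside 29.6% of all tested genes. The median log2 fold change was 0.27 over the 29 genes and -0.05 over all tested genes, with 22 of the 29 above 0. Ccr1 and Ppbp are also among these 22 and in that median. Scaling libraries to a common summed FPKM of leukocyte or macrophage markers turned the median of the 29 genes to -0.27 or -0.36 and that of all genes to -0.58 or -0.71, so the direction of the family median depended on the scale. The 20 genes that were not called had log2 fold changes between -0.77 and 0.78. Without mouse 1 of Sox4f/f, 5 genes were called higher beside 3.46% of all genes, and without mouse 2 labelled Sox4-MKO, 12 were beside 12.0%. The plot of log2 fold changes shows the called genes at both ends of the list.

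**Figure D1:**
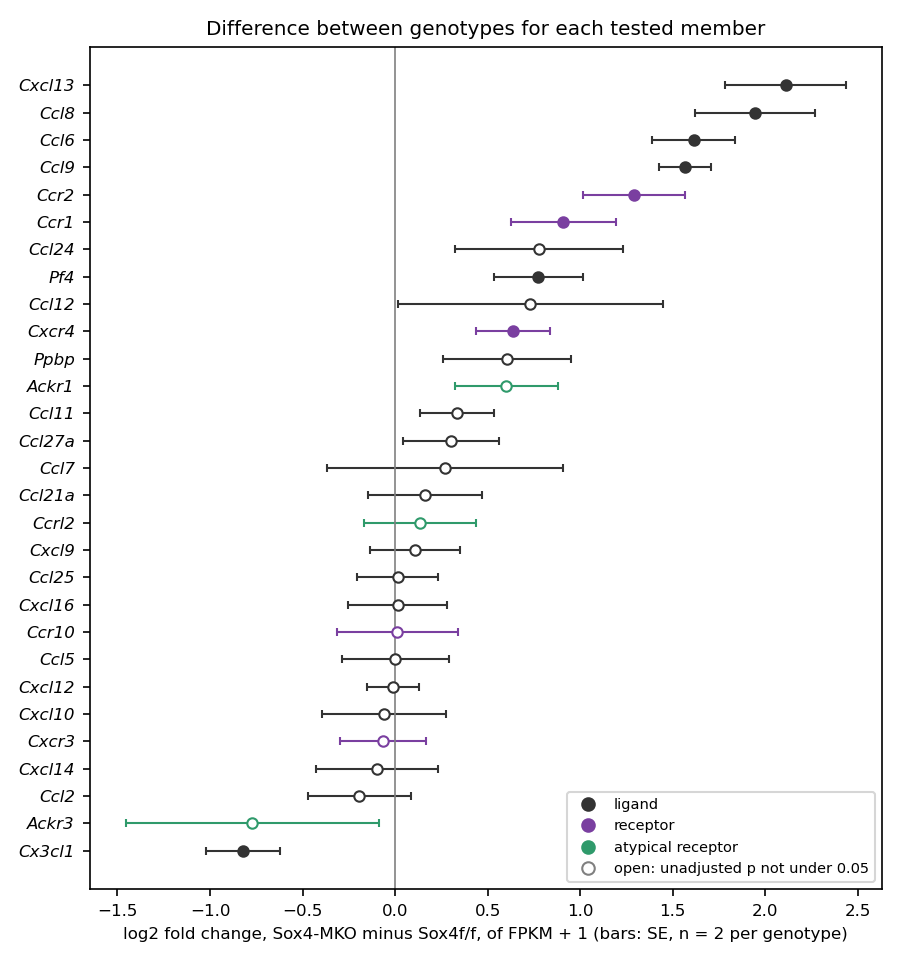
The log2 fold change of FPKM + 1 between mice labelled Sox4-MKO and Sox4f/f (x axis) is plotted for each of the 29 tested genes (y axis), with SE bars and n = 2 mice per genotype; filled points had an unadjusted p under 0.05 (limma). Cxcl13, Ccl8, Ccl6 and Ccl9 lie above 1.5, and Cx3cl1 and Ackr3 lie lowest.

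The largest differences among CC ligands were in Ccl8, Ccl6 and Ccl9. Ccl8 binds CCR8 in mice and is a macrophage product. Its level was 15.4 and 14.2 FPKM in Sox4f/f and 82.3 and 43.3 FPKM in the mice labelled Sox4-MKO. Both of the latter lay above both controls, with mouse 1 labelled Sox4-MKO highest. On the log2 scale the difference was 1.94 ± 0.32 (SE, unadjusted p = 0.0024, adjusted p = 0.196, limma), and it was 1.49 without that mouse. An estimated 88 to 108 fragments lay behind each control value and 367 to 550 behind the others.

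Ccl6 and Ccl9 are rodent chemokines that bind CCR1 and are made mainly by myeloid cells. Ccl6 measured 12.2 and 18.2 FPKM in Sox4f/f and 51.6 and 44.3 FPKM in the mice labelled Sox4-MKO. Ccl9 measured 4.83 and 4.90 FPKM in Sox4f/f and 17.0 and 15.8 FPKM in the others. The groups did not overlap for either gene, and the mice of one genotype lay close together for Ccl9. The log2 fold change was 1.61 ± 0.22 for Ccl6 (SE, unadjusted p = 0.00113, adjusted p = 0.196, limma). For Ccl9 it was 1.57 ± 0.14 (SE, unadjusted p = 0.000157, adjusted p = 0.191, limma). The ratio of averaged FPKM was 3.15 for Ccl6 and 3.37 for Ccl9. In bulk tissue, more cells of a type and more RNA per cell cannot be told apart.

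Ccl6 and Ccl9 are neighbours on the minus strand of chromosome 11, at 83587882 to 83593087 and 83572919 to 83578636 (GRCm38, GENCODE M21), with 9.25 kb between them. Ccl8 lies on the plus strand of the same chromosome at 82115185 to 82116799. The CC ligands of this chromosome form a proximal group from Ccl2 to Ccl8 within 81.2 kb and a distal group from Ccl5 to Ccl4 within 138.9 kb. In the proximal group, Ccl8 was called higher and Ccl2, Ccl7, Ccl11 and Ccl12 were not. In the distal group, Ccl6 and Ccl9 were called higher and Ccl5 was not, while Ccl3 and Ccl4 were under the limit for testing. The difference between neighbours was not tested.

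**Figure D2:**
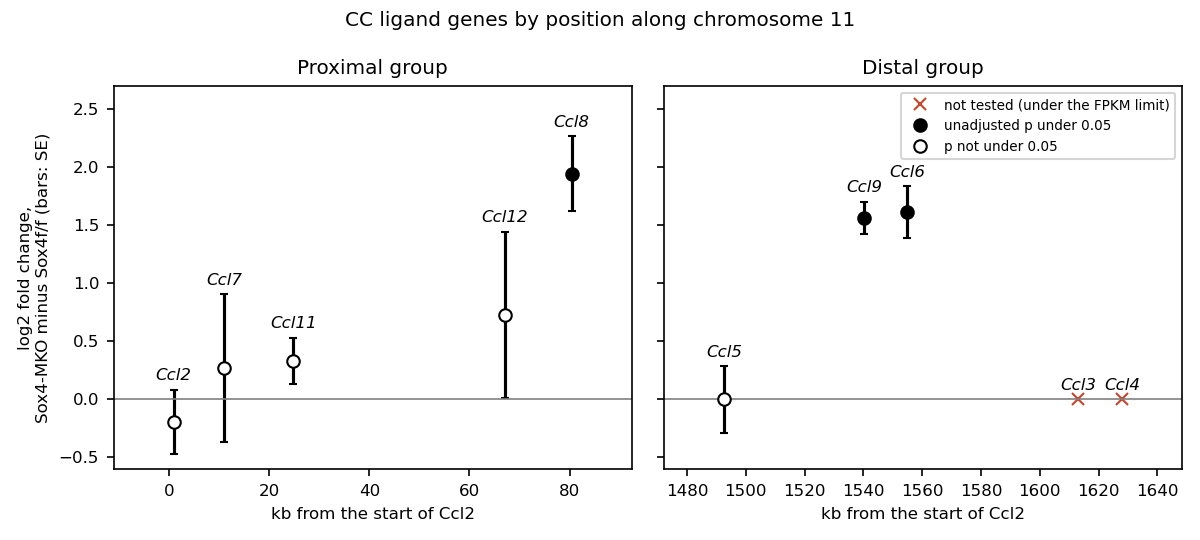
Log2 fold change of FPKM + 1 between mice labelled Sox4-MKO and Sox4f/f (y axis, SE bars, n = 2 mice per genotype) is plotted against distance in kb from the start of Ccl2 (x axis) for CC ligand genes of chromosome 11. Filled points (unadjusted p under 0.05) are Ccl8 in the proximal group and Ccl9 and Ccl6 in the distal group, and crosses at 0 stand for genes that were not tested.

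The promoters of the 5 ligands called higher are shown so that the bases before their start sites can be compared. They are the 250 bases before the RefSeq start (GRCm38.p6), read 5′ to 3′ on the strand of the gene, and capitals mark a match to one of 6 motifs on either strand.
Ccl6 (chr11:83593088-83593337, minus strand): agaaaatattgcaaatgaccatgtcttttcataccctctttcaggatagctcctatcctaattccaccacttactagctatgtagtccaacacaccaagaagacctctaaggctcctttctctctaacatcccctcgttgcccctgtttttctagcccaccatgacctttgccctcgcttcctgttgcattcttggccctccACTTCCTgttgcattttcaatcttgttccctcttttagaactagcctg
Ccl9 (chr11:83578637-83578886, minus strand): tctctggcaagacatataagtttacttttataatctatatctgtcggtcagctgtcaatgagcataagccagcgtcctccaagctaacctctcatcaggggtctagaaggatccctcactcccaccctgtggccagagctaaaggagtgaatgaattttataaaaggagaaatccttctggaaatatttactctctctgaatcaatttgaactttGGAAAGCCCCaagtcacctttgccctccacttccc
Ccl8 (chr11:82114935-82115184, plus strand): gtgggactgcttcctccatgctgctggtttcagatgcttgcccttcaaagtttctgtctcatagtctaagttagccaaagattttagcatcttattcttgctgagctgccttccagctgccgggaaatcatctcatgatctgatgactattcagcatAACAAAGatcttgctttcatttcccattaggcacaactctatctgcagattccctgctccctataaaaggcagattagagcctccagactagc
Pf4 (chr5:90772185-90772434, plus strand): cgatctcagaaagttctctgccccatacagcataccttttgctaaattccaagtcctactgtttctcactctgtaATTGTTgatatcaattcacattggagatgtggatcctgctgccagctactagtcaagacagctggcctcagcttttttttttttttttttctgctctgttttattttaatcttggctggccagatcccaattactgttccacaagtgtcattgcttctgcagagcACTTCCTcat
Cxcl13 (chr5:95956689-95956938, plus strand): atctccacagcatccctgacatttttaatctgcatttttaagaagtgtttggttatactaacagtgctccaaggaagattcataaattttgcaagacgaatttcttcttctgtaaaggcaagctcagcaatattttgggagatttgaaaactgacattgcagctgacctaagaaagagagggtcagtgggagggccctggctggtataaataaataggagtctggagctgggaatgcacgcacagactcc
The motifs were the NF-kappaB consensus, TTCNNNGAA (bound by STAT factors), AGGAAGT (bound by PU.1 and other ETS factors), AACAAT (a SOX core), AACAAAG (a site the study names for SOX4) and TCCCNNGGGA (bound by EBF factors). Promoters were found for 49 of the 66 genes. A gene counted as a match if any of its promoters matched, whereas the shares of all promoters count each promoter singly. A gene with more than 1 promoter had more chances to match, so the shares compared below are not strictly alike. The NF-kappaB consensus occurred in 10 of the 49 (20.4%) and in 3.9% of 32851 promoters of the same length. Those 10 were Ackr2, Ccl20, Ccl9, Ccr3, Ccr6, Ccrl2, Cxcl1, Cxcl10, Cxcl2 and Cxcl3, of which Ccl9 alone was among the 9 called genes. AGGAAGT occurred in 8 of the 49 (16.3%, beside 7.69% of all promoters), among them Ccl6 and Pf4. AACAAT occurred in 3 of the 49 (6.12%, beside 9.42%), among them Pf4. AACAAAG, added after the sequences had been seen, occurred in 3 of the 49 (6.12%, beside 5.03%), namely Ccl8, Ccr2 and Cxcl15. TTCNNNGAA occurred in 3 of the 49 (6.12%, beside 7.02%) and TCCCNNGGGA in 0, beside 0.779% of all promoters. Neither of these motifs was in a promoter of a called gene. Overlapping motifs could be counted under each, and a match of letters is a description of the window.

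The remaining CC ligands showed no call. Ccl2, Ccl7 and Ccl12 are ligands of CCR2, the receptor that draws monocytes out of blood. Ccl2 was 2.08 and 1.93 FPKM in Sox4f/f and 2.22 and 1.15 FPKM in the mice labelled Sox4-MKO. Ccl7 was 1.57 and 1.29 FPKM against 4.51 and 0.553 FPKM in the same order. Ccl12 was 3.75 and 0.864 FPKM against 7.64 and 1.82 FPKM. The genotypes overlapped for all 3, and mouse 1 labelled Sox4-MKO was highest for each. Without mouse 2 of that label Ccl7 was called higher, and without mouse 1 it was called lower, so its direction rested on single libraries (log2 fold changes of 1.18 and -0.64). Ccl12 was 0.73 on that scale and -0.08 without mouse 1 labelled Sox4-MKO.

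Ccl11 and Ccl24 are eotaxins, which attract eosinophils through CCR3. Ccl11 measured 26.3 and 20.8 FPKM in Sox4f/f and 34.0 and 26.0 FPKM in the mice labelled Sox4-MKO. Ccl24 measured 2.30 and 1.22 FPKM against 5.86 and 2.13 FPKM. It was called higher without mouse 2 labelled Sox4-MKO (log2 fold change 1.34) and was 0.21 without mouse 1. Both genes overlapped between the genotypes, and the third eotaxin, Ccl26, was listed at 0 in all 4 libraries. Ccl5, which recruits T cells and monocytes, measured 15.0 and 9.80 FPKM in Sox4f/f and 9.89 and 14.9 FPKM in the others, and the ranges nearly coincided.

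The homeostatic CC ligands Ccl21a, Ccl25 and Ccl27a passed the limit. Ccl21a, which guides dendritic cells and T cells through CCR7, was 1.53 and 3.17 FPKM in Sox4f/f and 2.91 and 2.37 FPKM in the mice labelled Sox4-MKO. Ccl25, the ligand of CCR9, was 4.06 and 4.38 FPKM against 5.16 and 3.52 FPKM. Ccl27a, the ligand of CCR10, was 10.9 and 9.57 FPKM against 16.4 and 9.98 FPKM. All overlapped. Ccl27a was called higher without mouse 2 labelled Sox4-MKO (log2 fold change 0.63) and was -0.03 without mouse 1. Ccl21a and Ccl27a have near-identical copies, and Ccl27a and Ccl25 share exon sequence with Il11ra1 and Elavl1, so their values are uncertain.

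Among CXC ligands, Cxcl13 had the largest log2 fold change, and of all 29 genes as well on the log2(FPKM + 1) scale with all 4 libraries. With a pseudocount of 0.01 Ccr1 exceeded it, and without mouse 2 labelled Sox4-MKO Ccl8 and Ccl6 did. Cxcl13 attracts B cells through CXCR5 and organises lymphoid follicles. Its level was 1.54 and 1.90 FPKM in Sox4f/f and 7.74 and 14.7 FPKM in the mice labelled Sox4-MKO. Both of the latter were above both controls, and mouse 2 labelled Sox4-MKO was highest. The log2 fold change was 2.11 ± 0.33 (SE, unadjusted p = 0.00177, adjusted p = 0.196, limma), and it was 1.69 without that mouse. The estimated fragments were 24 and 27 in Sox4f/f and 116 and 282 in the others. Mouse 2 labelled Sox4-MKO was also the library with 123 FPKM of Ighm, while the B cell markers Cd79a, Cd79b and Ms4a1 were at or below 0.868 FPKM in every library. Of the 5 B cell markers, 1 was tested and called higher (Ighm), and the summed FPKM of the list was 9.03 and 10.5 in Sox4f/f and 20.7 and 125 in the others. The part of these cells in the Cxcl13 value was not tested. Cxcr5, its receptor, was at most 0.142 FPKM in any library.

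Pf4 and Ppbp are platelet chemokines whose genes lie 2.37 kb apart on chromosome 5, and Pf4 is also made by tissue macrophages. Pf4 was 20.0 and 24.6 FPKM in Sox4f/f and 47.4 and 31.5 FPKM in the mice labelled Sox4-MKO, with no overlap. Its log2 fold change was 0.77 ± 0.24 (SE, unadjusted p = 0.0263, adjusted p = 0.254, limma). The call was lost without either Sox4f/f mouse (log2 fold change 0.63 with unadjusted p = 0.14 without mouse 1, 0.92 with unadjusted p = 0.0651 without mouse 2) and without mouse 1 labelled Sox4-MKO (0.49 with unadjusted p = 0.0795). Ppbp was 0.830 and 0.628 FPKM in Sox4f/f and 0.994 and 2.45 FPKM in the others. Its groups did not overlap, but the difference was called only without mouse 1 labelled Sox4-MKO (log2 fold change 1.00) among the libraries left out in turn. The platelet markers Itga2b, Gp9 and Gp1ba summed to 1.33 and 0.560 FPKM in Sox4f/f and 1.06 and 1.48 FPKM in the others, and none of the 3 passed the limit for testing.

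Cxcl12, the homeostatic ligand of CXCR4 made by stromal cells, was the most abundant ligand in both Sox4f/f libraries. It measured 38.0 and 41.7 FPKM there and 36.5 and 43.0 FPKM in the mice labelled Sox4-MKO. The ranges overlapped fully, and the log2 fold change was -0.01 ± 0.14 (SE, unadjusted p = 0.952, adjusted p = 0.980, limma). Cxcl14, a further homeostatic ligand, was 16.3 and 25.9 FPKM in Sox4f/f and 14.9 and 24.4 FPKM in the others, where the mice of one genotype differed more than the genotypes.

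The interferon-inducible ligands of CXCR3, which attract activated T cells and NK cells, were not called. Cxcl9 measured 14.4 and 9.14 FPKM in Sox4f/f and 13.3 and 11.7 FPKM in the mice labelled Sox4-MKO. Cxcl10 measured 4.13 and 2.19 FPKM against 3.65 and 2.22 FPKM. Both overlapped, and Cxcl11 was at most 0.221 FPKM. GENCODE M21 annotates Cxcl11 as a polymorphic pseudogene, and it is counted here among the ligands. Cxcl16, a membrane-bound ligand of CXCR6, was 2.74 and 3.66 FPKM in Sox4f/f and 2.50 and 4.08 FPKM in the others, again with overlap. Among the neutrophil-attracting ligands of CXCR2, Cxcl1 reached 1.08 FPKM in mouse 1 labelled Sox4-MKO, and Cxcl3, Cxcl5 and Cxcl15 were listed at 0 throughout.

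**Figure D3:**
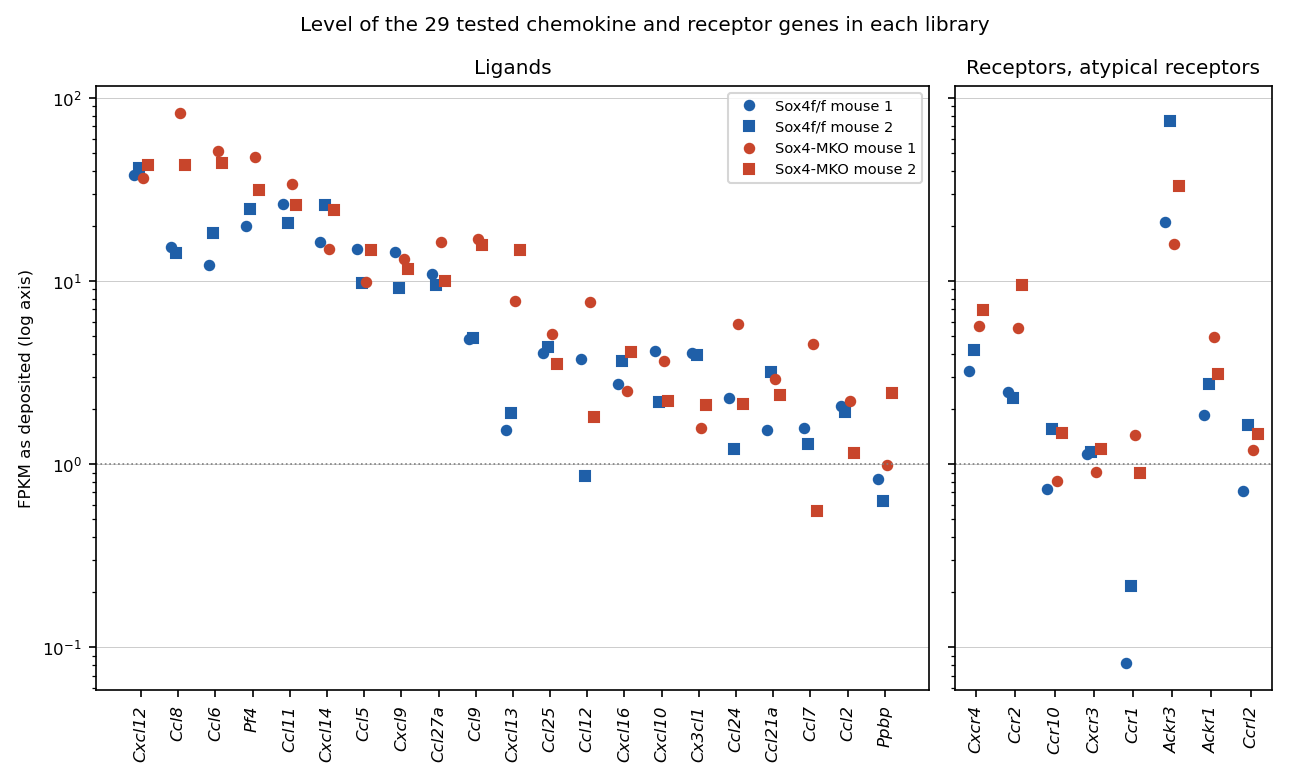
FPKM on a log axis is plotted for each of the 29 tested genes, with ligands on the left and receptors and atypical receptors on the right; blue points are the 2 Sox4f/f libraries, red points the 2 labelled Sox4-MKO, and the dotted line is 1 FPKM. Ccl8, Ccl6, Ccl9 and Cxcl13 have both red points well above the blue ones, Cx3cl1 has them below, and Cxcl12 shows all 4 points between 36.5 and 43.0 FPKM.

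Cx3cl1 was the only member called lower. It encodes fractalkine, a membrane-anchored chemokine that adheres monocytes bearing CX3CR1 and is made by endothelial cells and adipocytes among others. Its level was 4.03 and 3.93 FPKM in Sox4f/f and 1.57 and 2.09 FPKM in the mice labelled Sox4-MKO. Both of the latter lay below both controls, a ratio of 2.17 between the averaged FPKM of Sox4f/f and those of the mice labelled Sox4-MKO. The log2 fold change was -0.82 ± 0.20 (SE, unadjusted p = 0.0108, adjusted p = 0.216, limma). The direction held without either Sox4f/f mouse, but the call did not (-0.81 with unadjusted p = 0.0586 without mouse 1, -0.835 with unadjusted p = 0.0539 without mouse 2). The receptor Cx3cr1 was between 0.252 and 0.390 FPKM in all libraries. Cx3cl1 lies on the plus strand of chromosome 8 at 94772009 to 94782427, between Ccl22 and Ccl17, which span 66.4 kb with it. Ccl22 was at most 0.289 FPKM and Ccl17 was listed at 0. Endothelial markers summed to 123 and 153 FPKM in Sox4f/f and 97.8 and 135 FPKM in the others, with none of the 5 called. Adipoq, Plin1, Cidec and Lipe summed to 2965 and 2955 FPKM against 2387 and 2997 FPKM, with 1 of the 4 called lower (Lipe). The 6 brown adipocyte markers summed to 7098 and 6911 FPKM against 3417 and 4166 FPKM. The part of endothelial cells or adipocytes in the Cx3cl1 value was not tested. Xcl1, which attracts dendritic cells bearing XCR1, stayed between 0.530 and 0.991 FPKM.

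Among the receptors, 5 of 18 passed the limit. Of the 5, 3 were called higher and none lower, beside 7.95% and 8.28% of all tested genes. Ccr1 is among the 3 although the limit fixed its direction. Ccr2, the receptor of inflammatory monocytes, was 2.49 and 2.29 FPKM in Sox4f/f and 5.56 and 9.48 FPKM in the mice labelled Sox4-MKO. The groups did not overlap and mouse 2 labelled Sox4-MKO was highest. On the log2 scale Ccr2 differed by 1.29 ± 0.28 (SE, unadjusted p = 0.00655, adjusted p = 0.211, limma), and 0.95 without that mouse. The ratio of averaged FPKM was 3.15.

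Ccr1, a receptor of monocytes, macrophages and neutrophils that binds Ccl6 and Ccl9, was 0.0821 and 0.216 FPKM in Sox4f/f and 1.45 and 0.894 FPKM in the mice labelled Sox4-MKO. The estimated fragments were 3 and 7 in Sox4f/f and 54 and 42 in the others, so the control level is poorly known. Its log2 fold change was 0.91 ± 0.28 (SE, unadjusted p = 0.0268, adjusted p = 0.254, limma), and it was 2.37 and 2.99 with pseudocounts of 0.1 and 0.01. The ratio of averaged FPKM was 7.85. The gene lost its call without either Sox4f/f mouse (0.82 with unadjusted p = 0.0798 without mouse 1, 0.99 with unadjusted p = 0.0532 without mouse 2), and it was under the limit for testing without mouse 1 labelled Sox4-MKO. Ccr3, the eotaxin receptor, lies between Ccr1 and Ccr2 on chromosome 9 and was between 0.199 and 0.499 FPKM.

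Cxcr4, the receptor of Cxcl12 on many leukocytes and progenitors, was 3.23 and 4.19 FPKM in Sox4f/f and 5.69 and 6.95 FPKM in the mice labelled Sox4-MKO. There was no overlap, and the log2 fold change was 0.64 ± 0.20 (SE, unadjusted p = 0.0271, adjusted p = 0.254, limma). Its call was lost without mouse 1 of Sox4f/f (0.49 with unadjusted p = 0.14) and without mouse 2 labelled Sox4-MKO (0.51 with unadjusted p = 0.115). Cxcr3, carried by activated T cells, was 1.14 and 1.16 FPKM in Sox4f/f and 0.907 and 1.21 FPKM in the others. Ccr10, the receptor of Ccl27a and Ccl28, was 0.730 and 1.56 FPKM against 0.812 and 1.48 FPKM. Both overlapped. The remaining 13 receptors were at most 0.915 FPKM (Cxcr6), and Cxcr1 was listed at 0.

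No atypical receptor was called. Ackr3, which takes up Cxcl12 and so lowers its free level, was 21.0 and 75.3 FPKM in Sox4f/f and 16.0 and 32.9 FPKM in the mice labelled Sox4-MKO. The controls differed more from each other than the averages of the genotypes did, and the log2 fold change was -0.77 ± 0.69 (SE, unadjusted p = 0.316, adjusted p = 0.600, limma). Without mouse 2 of Sox4f/f it was 0.13, and without mouse 1 it was -1.67 with unadjusted p = 0.0422, so the direction rested on single libraries. With the mouse numbers as a block it was called lower (unadjusted p = 0.0384, limma). Ackr1, which carries chemokines across venules and on red cells, was 1.85 and 2.74 FPKM in Sox4f/f and 4.97 and 3.11 FPKM in the others. Its groups did not overlap, and it was called only without mouse 2 labelled Sox4-MKO (log2 fold change 0.87) among the libraries left out in turn. Its exons overlap those of Cadm3 on the same strand, so the value is uncertain. Ccrl2, which binds chemerin and does not signal, was 0.711 and 1.63 FPKM against 1.20 and 1.46 FPKM. Ackr2 and Ackr4 were at most 0.612 FPKM.

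By receptor, 2 of 3 tested ligands of CCR1 were called higher (Ccl6 and Ccl9, with Ccl5 not called). None of 3 tested ligands of CCR2 was called, while Ccr2 was called higher. The only tested ligand of CCR8, Ccl8, was called higher, and Ccr8 was at most 0.0766 FPKM. Cxcr4 was called higher and Cxcl12 was not. Of 9 tested inflammatory ligands 1 was called higher (Ccl8, 11.1%) and none lower, beside 7.95% and 8.28% of all tested genes. Of 7 tested homeostatic ligands 1 was called higher (Cxcl13, 14.3%) and 1 lower (Cx3cl1, 14.3%). Each of these shares rests on 1 gene. The median log2 fold change was 0.02 for the homeostatic ligands, 0.27 for the inflammatory ligands and -0.05 for all tested genes. These groups follow common usage and leave out Ccl6, Ccl9, Pf4, Ppbp, Cxcl16 and Xcl1, among others.

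The summed level of all 41 ligands was 205 and 206 FPKM in Sox4f/f and 372 and 304 FPKM in the mice labelled Sox4-MKO, a ratio of 1.65 between the averages. The 5 ligands called higher made up most of the difference, with 54.0 and 63.9 FPKM against 206 and 150 FPKM. The other 36 ligands summed to 151 and 142 FPKM against 166 and 155 FPKM, a ratio of 1.10. The 5 were chosen by their difference, so this split is a description. The makeup of the pool differed too. Cxcl12 held 18.6% and 20.2% of the summed ligand FPKM in Sox4f/f and 9.80% and 14.1% in the mice labelled Sox4-MKO. Ccl8 held 7.50% and 6.88% against 22.1% and 14.2%. The most abundant ligand was Cxcl12 in both Sox4f/f libraries, Ccl8 with 82.3 FPKM in mouse 1 labelled Sox4-MKO and Ccl6 with 44.3 FPKM in mouse 2. Receptors summed to 10.8 and 11.5 FPKM in Sox4f/f and 17.5 and 23.9 FPKM in the others, a ratio of 1.85.

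Marker lists of several other cells also differed by genotype label, in both directions. Among all tested genes 7.95% were called higher and 8.28% lower. Macrophage markers (11 genes, Adgre1, Csf1r and the C1q genes among them) summed to 224 and 326 FPKM in Sox4f/f and 468 and 449 FPKM in the mice labelled Sox4-MKO, with 8 of 11 called higher, Fcgr1 among them passing the limit only in the latter. Pan-leukocyte markers summed to 64.5 and 50.4 FPKM against 79.5 and 97.0 FPKM, with 3 of 6 called higher, Ptprc among them at 4.46 and 4.47 FPKM against 6.82 and 7.87 FPKM. Fibroblast markers summed to 260 and 301 FPKM against 642 and 583 FPKM, with 5 of 5 called higher. Each of these 3 sums was higher without overlap. Mast cell markers summed to 13.7 and 16.0 FPKM against 47.4 and 41.9 FPKM, with 4 of 5 called. Monocyte markers summed to 7.15 and 4.64 FPKM against 14.3 and 15.6 FPKM, with 2 of 3 tested called higher. T cell markers overlapped, at 7.16 and 5.66 FPKM against 4.13 and 9.38 FPKM. NK markers overlapped as well, at 5.75 and 3.35 FPKM against 3.67 and 7.90 FPKM. Dendritic markers summed to 12.5 and 13.9 FPKM against 11.7 and 10.9 FPKM, with 1 of 3 tested called lower (Zbtb46) and none higher. No eosinophil marker passed the limit for testing. Neutrophil markers summed to 2.97 and 3.42 FPKM against 5.92 and 11.8 FPKM. All 3 tested (S100a8, S100a9 and Retnlg) were higher without overlap, beside 21.7% of all tested genes, and 1 was called (S100a9). Retnlg passed the limit only in the mice labelled Sox4-MKO, so it had to be higher. Ly6g was listed at 0 in all 4 libraries. Brown adipocyte markers summed to 7098 and 6911 FPKM against 3417 and 4166 FPKM, with 4 of 6 called lower.

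**Figure D4:**
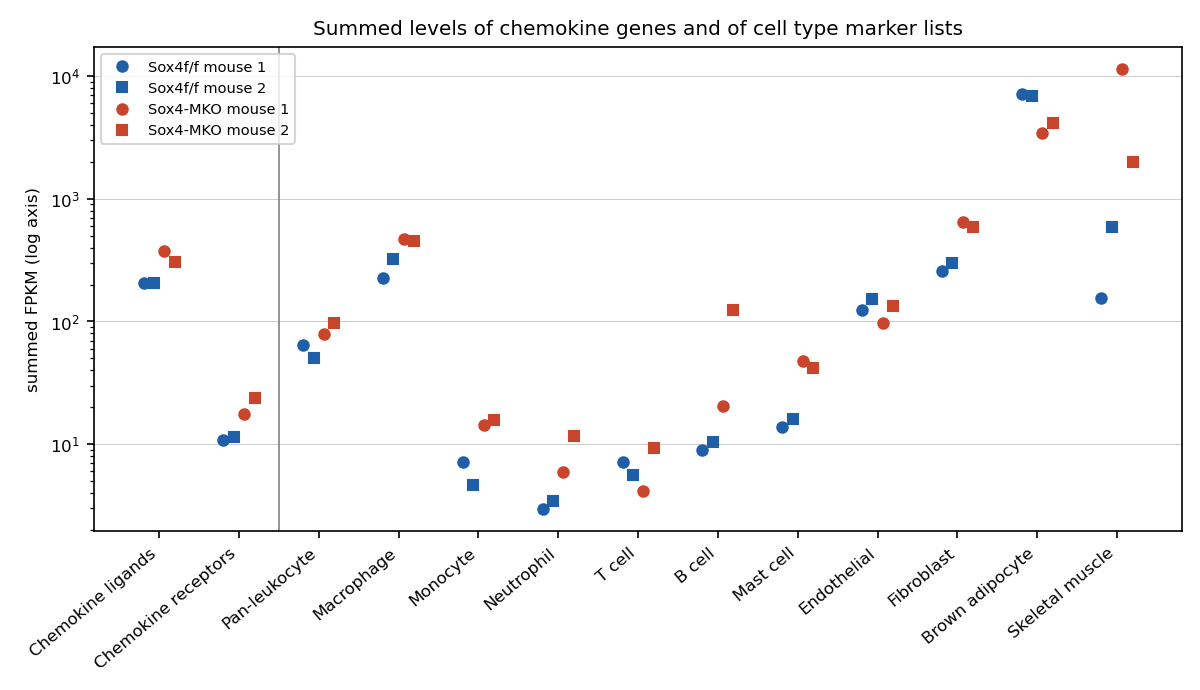
Summed FPKM on a log axis is plotted for the 41 chemokine ligands, the 18 receptors and 11 marker lists, with blue points for the 2 Sox4f/f libraries and red points for the 2 labelled Sox4-MKO. Ligand and receptor sums, macrophage, fibroblast and mast cell markers are higher in both red points, brown adipocyte markers are lower, and skeletal muscle markers reach 11388 FPKM in mouse 1 labelled Sox4-MKO.

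Set against the macrophage sum of the same library, the 8 genes called higher differed in whether the genotypes still overlapped. The 8 were chosen by their difference in these same libraries, so the ratios are a description. The limit for testing fixed the direction of Ccr1, and its control values rest on an estimated 3 and 7 fragments. Ccl6 was 0.0544 and 0.0560 of that sum in Sox4f/f and 0.110 and 0.0985 in the mice labelled Sox4-MKO. Ccl9, Ccl8, Cxcl13, Ccr2 and Ccr1 also lay higher without overlap relative to it, by 1.95, 2.43, 3.88, 1.82 and 4.94 times, with Ccr2 closest to overlap (0.0111 in Sox4f/f mouse 1 against 0.0119). Pf4 and Cxcr4 overlapped relative to it, with ratios of 1.04 and 1.01. With libraries rescaled to the macrophage sum, Ccl8, Ccl6, Ccl9 and Cxcl13 kept an unadjusted p under 0.05 (limma), with log2 fold changes of 1.21, 0.88, 0.88 and 1.52. Ccr2 did not, at 0.68 with unadjusted p = 0.0831, nor did Pf4, Cxcr4 and Ccr1. Rescaled to the pan-leukocyte sum, Ccr2 was 0.79 with unadjusted p = 0.0331. Relative to the fibroblast sum, Ccl6, Ccl9, Ccl8, Cxcl13 and Ccr1 were higher without overlap, by 1.45, 1.53, 1.90, 3.04 and 3.66 times, and Ccr2, Pf4 and Cxcr4 were not. The part of each cell type in these differences was not tested. The plot of alternatives sets these scalings beside the others.

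**Figure D5:**
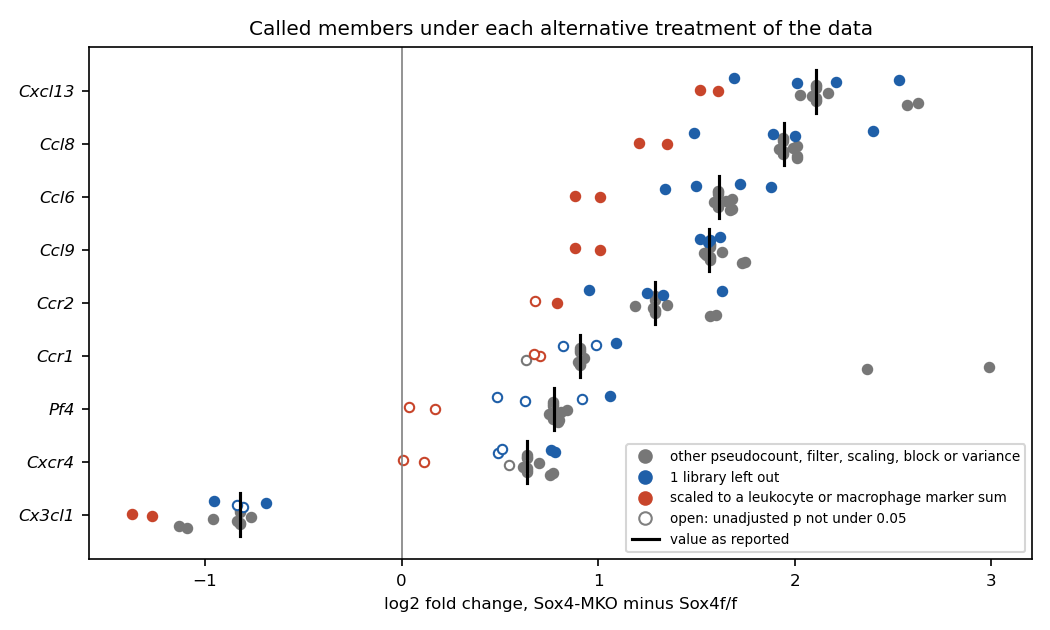
For each of the 9 called genes (y axis), the log2 fold change between mice labelled Sox4-MKO and Sox4f/f (x axis) is plotted under up to 17 alternative treatments of the data, with red points for scaling to leukocyte or macrophage markers, blue points for 1 library left out, filled points for an unadjusted p under 0.05 and a black line for the value as reported. Ccl6, Ccl9 and Cxcl13 are filled throughout, whereas Pf4 and Cxcr4 lie near 0 under the marker scalings.

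Genes that act beside chemokines were given by lists. Of 35 genes that signal behind the receptors 31 were tested, and 3 were called higher (9.68%) and 2 lower (6.45%), close to the 7.95% and 8.28% of all tested genes. The called genes are therefore given as single values. Gnai1, an inhibitory G protein subunit, was 17.8 and 16.2 FPKM in Sox4f/f and 29.6 and 31.5 FPKM in the mice labelled Sox4-MKO, a log2 fold change of 0.81. Itgam, an integrin of myeloid cells, was 1.08 and 1.89 FPKM against 3.85 and 3.13 FPKM (0.87), and it is also 1 of the monocyte markers. Prex1, an exchange factor for Rac, was 1.51 and 1.60 FPKM against 3.21 and 2.63 FPKM (0.61). In the other direction, Grk3, a kinase that desensitises receptors, was 30.1 and 36.7 FPKM against 13.5 and 22.0 FPKM (-0.91). Gnb1, a G protein beta subunit, was 110.0 and 110.6 FPKM against 84.5 and 84.2 FPKM (-0.38). The median of the 31 genes was 0.21 on the log2 scale.

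Of 20 genes that control the induction of chemokine transcription 15 were tested. Of the 15, 1 was called higher (6.67%) and 2 lower (13.3%), beside 7.95% and 8.28% of all tested genes. The median of the 15 was 0.11 on the log2 scale. Tlr4, the receptor of bacterial lipopolysaccharide, was 3.09 and 2.87 FPKM in Sox4f/f and 4.83 and 4.72 FPKM in the mice labelled Sox4-MKO (log2 fold change 0.54). Rela, a subunit of NF-kappaB, was 22.5 and 23.8 FPKM against 15.8 and 14.9 FPKM (-0.56). Nfkb2 was 9.29 and 9.48 FPKM against 6.68 and 6.35 FPKM (-0.47). Nfkb1 was 12.9 and 12.8 FPKM against 14.0 and 13.8 FPKM and was not called. The cytokines Tnf, Il1b and Il6, which raise inflammatory chemokines, were not tested. Tnf and Il1b were at most 0.293 and 0.578 FPKM, and Il6 was listed at 0 in 1 mouse of each genotype.

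Chemokine-processing proteases made up a list of 9 genes, of which 8 were tested. Of the 8, 4 were called higher (50.0%) and none lower, beside 7.95% and 8.28% of all tested genes. Among the 4 called, Dpp4 averaged under 1 FPKM in Sox4f/f and passed the limit only through the other mice, so it had to be higher. Dpp4, which trims the ends of chemokines such as Cxcl12, was 0.750 and 0.466 FPKM in Sox4f/f and 3.27 and 3.53 FPKM in the mice labelled Sox4-MKO (log2 fold change 1.46). Ctsc, which activates granule proteases, was 10.9 and 12.5 FPKM against 31.8 and 29.6 FPKM (1.33). Mmp2 was 14.0 and 15.5 FPKM against 26.1 and 26.1 FPKM (0.78), and Mmp9 was 1.94 and 2.09 FPKM against 4.01 and 3.59 FPKM (0.67). Of the 8 tested, 6 were higher without overlap (Dpp4 among them), beside 21.7% of all tested genes, while Adam17 and Mmp12 overlapped. Mmp2 and Dpp4 are also expressed by fibroblasts, whose 5 markers were called higher in the same libraries. The part of fibroblasts in the protease values was not tested.

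Of the 24 genes that were above 0 but under the limit, a few were listed at 0 in both libraries of one genotype. Ccl3 was 0.404 and 0.310 FPKM in Sox4f/f and listed at 0 in both mice labelled Sox4-MKO. Cxcl2 was 0.174 and 0.190 FPKM in Sox4f/f and also listed at 0 in the others. Both are early products of activated macrophages and neutrophils. In the other direction, Cxcl17 and Ccr6 were above 0 in 1 library labelled Sox4-MKO, at 0.117 and 0.0650 FPKM. Ccl19, a ligand of CCR7, was 0.175 and 0 FPKM in Sox4f/f and 1.03 and 0.769 FPKM in the others, on an estimated 10 fragments at most. Ccr7 was between 0.299 and 0.441 FPKM. Values this low rest on few fragments, and an exact 0 can be a failed estimate in such data. Ccl28, the other CCR10 ligand, was 0.616 and 0.400 FPKM against 0.282 and 0.0177 FPKM.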

How the data were processed

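RNA was extracted from BAT of 4 mice (2 Sox4f/f and 2 labelled Sox4-MKO, 1 library each) and sequenced as paired ends. The methods describe TRIzol extraction and a TruSeq library, whereas the labels name RNeasy columns, DNase and a stranded library kit, so it is not certain which was used. The authors deposited 1 FPKM value per gene and library, with no counts. The submitters' processing notes name Cufflinks 2.1.1, Cuffdiff and mm10. The aligner and the gene annotation are not given in the sources used here. The sample titles gave each genotype and mouse number.

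FPKM were used as deposited. limma 3.58.1 in R 4.3.3 was fitted to log2(FPKM + 1) of the 12877 genes whose FPKM averaged over 1 in one genotype or both, with genotype as the only term and a trended prior. p-values are two-sided and adjusted by the Benjamini-Hochberg method over all 12877 genes. The fit was tested on simulated data. Fragment numbers were estimated from the steps between low values of long genes and are approximate. Positions are those of GENCODE M21 (GRCm38) for the same symbol, which matched 65 of the 66 genes, and of these 11 share exon sequence with another gene. Promoters are from RefSeq (GRCm38.p6). Tables were made with pandas 2.3.3 in Python 3.11.15 and figures with matplotlib 3.10.9.

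The genes, the groups by receptor, the other lists and the marker lists were chosen with earlier results of these data known. FPKM per library are given for every tested gene, and fold changes with SE and p for those with an unadjusted p under 0.05 and the 5 with the largest averaged FPKM. Untested genes are given by range (a few are not reported here), or by value where they pair with a tested gene or are listed at 0 in one genotype. Genes of the signalling and induction lists are named where called, with Nfkb1, Rela, Tnf, Il1b and Il6 in any case. The called proteases are named as well and were chosen after their values were seen. Alternatives were 2 other pseudocounts, 3 other filters, 5 scalings, a block for mouse number, 2 other variance models and leaving out each library.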

Additional observations from a re-analysis of the deposited data

How the results depend on the processing

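Under 17 alternatives the called genes kept their direction in each of the 150 values computed, and 126 of these kept an unadjusted p under 0.05. Ccl6, Ccl9 and Cxcl13 kept it throughout, and Ccl8 lost it without moderation of the variance (limma, unadjusted p = 0.0515). The called genes were chosen in these same libraries, so a kept direction was likely from the start. For Ccr1 the limit of 1 FPKM fixed the direction wherever that limit applied. With the averaged FPKM limit at 0.1, 2 members were lower (beside 6.09% of all genes), the median log2 fold change was 0.15 and 21 members did not overlap. At a limit of 5 these were 0 (beside 11.1%), 0.485 and 7. With no limit they were 3 (beside 5.65%), 0.11 and 21. Fewer or more genes were tested at these limits. Quantile normalization gave a median of 0.12. Scaling to the pan-leukocyte sum gave 5 higher, 2 lower (beside 3.39% and 34.4% of all genes) and a median of -0.27. Scaling to the macrophage sum gave 4 higher, 3 lower (beside 3.66% and 40.5%) and a median of -0.36. Without moderation 4 members were higher. The calls of all genes were then 553 higher and 935 lower. Leaving out each library gave 5 to 12 members higher, 0 to 2 lower, medians from 0.21 to 0.516 and 16 to 24 members with no overlap. Over all genes these fits called 445 to 1559 higher and 404 to 1012 lower. A lone sample is then assumed to vary like the other genotype, and no overlap is easier to reach with 1 library against 2. The share of all genes without overlap was taken only for the fit reported above. The counts without overlap in this paragraph are therefore not read as a separation of the genotypes. The log2 fold change of Cxcl12 turned to 0.0275 under quantile normalization, 0.0617 under the sum without mitochondrially encoded genes and Ucp1, 0.0558 without mouse 2 of Sox4f/f and 0.106 without mouse 1 labelled Sox4-MKO, and leaving out each library moved it between -0.124 and 0.106. Ackr3 moved between -1.67 and 0.126, the latter without mouse 2 of Sox4f/f. The cause was not tested. Of the 18 other members, 15 changed sign under some alternative and 7 were called in at least 1.

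Mouse numbers do not pair the samples in the labels, and the difference between mice 1 and 2 correlated between genotypes with r = -0.0122 across genes, which are not independent replicates. With the replicate block, 9 members were higher (Ccl12 and Ccl24 added, Ccr1 lost) and 2 were lower (Ackr3 added). Of all tested genes, 7.53% were higher and 7.28% lower in that fit. Without counts, depth is known only as an estimate, and 2 mice per genotype limit the precision.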
